A study of Homo sapiens with 4 samples.

Results

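Genes of the FET and ETS families, which are joined in the fusions of Ewing sarcoma, were followed in TC-71 cells, an established Ewing sarcoma line, on 4 expression arrays. The set holds EWSR1 and TAF15, of the FET family, and FLI1, ERG, ETV1, ETV4, ETV5, ETS1 and ETS2, of the ETS family. A gene was taken from the deposited table where a row, read as a transcript cluster, carried its symbol and no other in the platform annotation. All 9 genes were found, each on 1 cluster, among 23383 clusters with a single symbol and 67539 clusters in all.

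Groups of 2 arrays each were compared, labelled as biological replicates. In the TC-71 group (replicates A and B) the cells were untreated. In the TC-71 + TC-CD99neg EXOs group (replicates C and D) they received exosomes (EXOs, small vesicles shed by cells) from TC-71 cells silenced for CD99, for 24 h, at 10 µg per 5000 cells. The labels write the donor as siCD99 and the study's methods name a CD99-shRNA line. The exposure was made without serum, and the medium of the untreated cells is not given for the arrays. No array had cells given EXOs of parental cells, so exposure to any EXOs and the CD99neg origin of these cannot be told apart.

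FET proteins bind RNA and take part in transcription and splicing. ETS proteins bind DNA through a conserved domain that reads a GGAA core. In Ewing sarcoma a translocation joins the front of a FET gene, mostly EWSR1, to the back of an ETS gene, mostly FLI1 and less often ERG, ETV1 or ETV4. The fusion protein binds GGAA repeats and keeps the tumour program running. TC-71 carries an EWSR1 and FLI1 fusion. Each gene had 1 value per array, and all 9 rows carry names of the array's junction form, although they were read as transcript clusters. Which transcripts a value covers is therefore uncertain, and the wild-type and the fused transcripts of EWSR1 and FLI1 cannot be told apart here.

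Neither fusion partner passed the test after EXO exposure, and no member of the set reached a fold of 1.5. ETV1 and ETS2 were higher in exposed cells, by less than that fold, with a limma adjusted p of at most 0.05. ETV1 was 1.26-fold higher and ETS2 1.18-fold higher. For these genes RefSeq (GRCh38.p14) gives the 300 bases around transcript starts, 250 before and 50 after, and the sequences are shown because ETS factors and the ETV1 repressor CIC read short motifs in such windows. FLI1, which had the third smallest adjusted p, is named only. Capitals mark GGAA or its reverse TTCC, and TGAATGGA where present. Each sequence is in the direction of transcription, with the upstream-most window of each gene first. Both ETS2 windows are shown, and of the 6 ETV1 windows the outermost and one with adjoining cores, chosen after the sequences were seen.

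ETV1, chr7:13991376-13991675, minus strand: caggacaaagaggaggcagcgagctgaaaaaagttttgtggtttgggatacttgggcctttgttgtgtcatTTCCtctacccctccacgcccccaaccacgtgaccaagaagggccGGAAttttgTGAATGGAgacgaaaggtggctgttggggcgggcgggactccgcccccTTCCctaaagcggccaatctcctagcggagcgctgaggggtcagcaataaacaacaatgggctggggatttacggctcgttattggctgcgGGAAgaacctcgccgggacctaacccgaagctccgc
ETV1, chr7:13990653-13990952, minus strand: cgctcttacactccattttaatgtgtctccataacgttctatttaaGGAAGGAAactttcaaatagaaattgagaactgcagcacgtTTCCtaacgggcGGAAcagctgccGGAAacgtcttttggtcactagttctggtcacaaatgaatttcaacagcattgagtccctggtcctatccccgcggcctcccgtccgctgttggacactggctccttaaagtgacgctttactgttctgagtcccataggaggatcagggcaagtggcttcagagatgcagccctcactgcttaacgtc
ETS2, chr21:38804933-38805232, plus strand: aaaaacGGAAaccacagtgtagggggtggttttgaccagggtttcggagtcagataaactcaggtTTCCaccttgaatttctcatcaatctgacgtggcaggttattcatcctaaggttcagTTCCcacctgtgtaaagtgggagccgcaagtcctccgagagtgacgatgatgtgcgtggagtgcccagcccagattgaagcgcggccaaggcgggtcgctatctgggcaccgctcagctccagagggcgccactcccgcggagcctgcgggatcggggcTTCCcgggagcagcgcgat
ETS2, chr21:38805679-38805978, plus strand: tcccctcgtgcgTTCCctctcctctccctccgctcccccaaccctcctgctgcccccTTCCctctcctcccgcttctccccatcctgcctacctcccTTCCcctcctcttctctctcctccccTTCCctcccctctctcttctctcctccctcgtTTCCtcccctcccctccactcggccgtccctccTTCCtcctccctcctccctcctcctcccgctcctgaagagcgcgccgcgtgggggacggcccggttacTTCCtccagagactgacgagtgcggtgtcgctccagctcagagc

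The first ETV1 window held 4 GGAA cores and 1 TGAATGGA, a form of the octamer that CIC binds. The second ETV1 window held 5 GGAA cores, a pair of them joined head to tail as GGAAGGAA. That window was chosen for its adjoining cores, and the share of all windows with GGAAGGAA was not computed. How common such a pair is was therefore not tested. Of the ETV1 windows not shown, one overlaps the second nearly whole and also held 5 cores, and the others held 3 to 6. The ETS2 windows held 4 and 7 cores, and 91.7% of all windows held fewer than the latter. That share was 71.4% for the second ETV1 window, and lower still for the first ETV1 and the first ETS2 window. A GGAA core on either strand is common, since 95.5% of 35116 windows of this length hold at least 1. TGAATGGA, which was added after the sequences were seen, was in 1.03% of all windows. TGAATGAA, the other CIC form searched, and TGACTCA, the AP-1 site, were searched on both strands and were in no window that RefSeq gave for EWSR1, ERG, ETV1 and ETS2, against 1.65% and 4.95% of all windows. No motif overlapped another kind in the ETV1 and ETS2 windows shown. A match describes letters only.

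EWSR1 encodes the FET protein at the front of the fusion. Its cluster had a log2 signal of 8.79 and 8.88 on the untreated arrays A and B and of 8.75 and 8.72 on the EXO arrays C and D. Both EXO arrays lay below both untreated ones. The change was −0.10 on the log2 scale (SE 0.05, 95% interval −0.23 to 0.03, limma adjusted p = 0.34), which did not pass the test. TAF15 encodes another FET protein, which can replace EWSR1 in fusions of other sarcomas. Its log2 signal was 9.67 and 9.75 in untreated cells and 9.64 and 9.69 in exposed cells. The groups overlapped, and the change was −0.04 (SE 0.05, 95% interval −0.17 to 0.08, limma adjusted p = 0.752).

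FLI1 encodes the ETS factor whose DNA-binding domain ends the fusion of these cells. Its log2 signal was 6.67 and 6.62 on arrays A and B and 6.56 and 6.56 on arrays C and D. Exposed cells lay lower on both arrays, by 0.08 (log2 change −0.08, SE 0.04, 95% interval −0.19 to 0.02, limma adjusted p = 0.337). That change exceeded the larger difference between replicates by 1.7 times and did not pass the test. ERG encodes a close relative of FLI1, active in endothelium and blood stem cells, and the usual alternative fusion partner. Its log2 signal was 4.73 and 4.68 untreated and 4.67 and 4.69 exposed, below the median of all clusters on each array. The ERG groups overlapped, with a change of −0.02 (SE 0.04, 95% interval −0.13 to 0.08, limma adjusted p = 0.886).

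**Figure D1:**
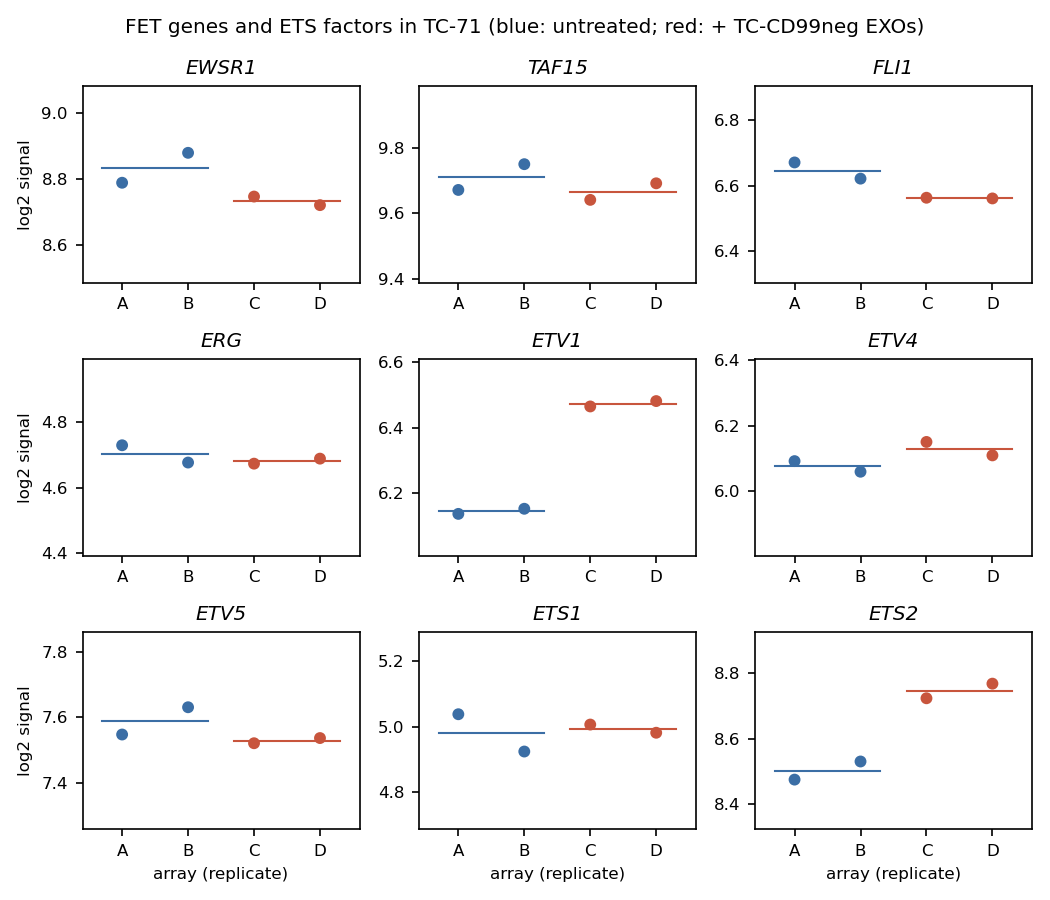
Log2 signal of the 9 genes on each of the 4 arrays, 1 panel a gene, with the TC-71 arrays A and B beside the EXO arrays C and D; points are single arrays and lines are group means. ETV1 stands at 6.14 and 6.15 untreated and at 6.47 and 6.48 exposed, and ETS2 at 8.47 and 8.53 against 8.72 and 8.77, while TAF15, ERG and ETS1 overlap between groups.

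ETV1, ETV4 and ETV5 form the PEA3 subfamily, which acts below receptor tyrosine kinases and ERK and is held down by the repressor CIC. ETV1 had a log2 signal of 6.14 and 6.15 in untreated cells and of 6.47 and 6.48 in exposed cells. Both EXO arrays lay above both untreated ones, and replicates differed by 0.02 at most. The change of 0.33 (SE 0.04, 95% interval 0.23 to 0.43) passed the adjusted test (limma adjusted p = 0.0144) and was 20 times the larger replicate difference. As a fold it was 1.26, with a 95% interval of 1.17 to 1.34. With each array left out in turn the change was 0.32 to 0.34. Its sign could not turn there, because the groups do not overlap.

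ETV4 had a log2 signal of 6.09 and 6.06 untreated and of 6.15 and 6.11 exposed. Its EXO arrays were the higher ones, by a change of 0.05 (SE 0.04, 95% interval −0.05 to 0.16, limma adjusted p = 0.59) that did not pass the test. ETV5, which with ETV4 belongs to a transcript score of MAPK activity, had a log2 signal of 7.55 and 7.63 untreated and of 7.52 and 7.54 exposed. Its EXO arrays were the lower ones, by a change of −0.06 (SE 0.05, 95% interval −0.18 to 0.06, limma adjusted p = 0.602) that did not pass either. The change of ETV1 was larger than that of ETV4 by 0.27 and than that of ETV5 by 0.39. In an exact two-sided permutation test of the arrays each difference had p = 0.333, the smallest that 6 splits of 2 against 2 arrays allow, so no such difference could pass.

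ETS1 and ETS2 encode the founding pair of the family, both phosphorylated by ERK. ETS1 had a log2 signal of 5.04 and 4.92 untreated and of 5.01 and 4.98 exposed, below the median of all clusters on each array. The groups overlapped, with a change of 0.01 (SE 0.05, 95% interval −0.13 to 0.15, limma adjusted p = 0.96), whose sign turned under other scalings. ETS2 had a log2 signal of 8.47 and 8.53 untreated and of 8.72 and 8.77 exposed. Both EXO arrays lay above both untreated ones. The ETS2 change was 0.24 (SE 0.04, 95% interval 0.13 to 0.36, limma adjusted p = 0.0391), or 1.18-fold with a 95% interval of 1.09 to 1.28. It was 4.39 times the larger replicate difference. With each array left out in turn it was 0.22 to 0.27, with an adjusted p of 0.0916 to 0.175, and with each array centred on its median it was 0.20 with an adjusted p of 0.105. ETS2 changed by 0.23 more than ETS1 (exact permutation p = 0.333, again the smallest possible).

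Pairs of these genes are neighbours in the genome. FLI1 and ETS1 lie next to each other on chromosome 11 and ERG and ETS2 on chromosome 21, with 0 protein-coding genes between them in the RefSeq order. In the pair on chromosome 21 ETS2 had a change of 0.24 and ERG one of −0.02. In the pair on chromosome 11 neither passed the test, with −0.08 for FLI1 and 0.01 for ETS1. The exact permutation test gave p = 0.333, its smallest value, for each of the 5 pairs of members compared, EWSR1 against TAF15 (−0.06) and FLI1 against ERG (−0.06) among them. Values adjusted over the 5 pairs cannot be smaller.

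At a fold of at least 1.5 with an adjusted p of at most 0.05, 0 of the 9 genes were called, against 2.06% of single-symbol clusters and 2.59% of all clusters. By limma, 2 of 9 had an unadjusted p under 0.05, against 28.6% of single-symbol clusters. All 9 of the 95% intervals, each for its own gene, lay inside a fold of 1.5 in either direction, as did those of 94.5% of single-symbol clusters. By the adjusted p alone 2 of 9 passed, against 12.6% of single-symbol clusters. Both were higher, where 5.76% of single-symbol clusters passed as higher and 6.85% as lower. The groups did not overlap in 3 genes that were higher and 3 that were lower, against 26.2% and 26.2% of single-symbol clusters. The change exceeded the larger difference between replicates in 5 of 9 genes and in 43.0% of single-symbol clusters. The median change of the 9 genes was −0.02, and that of single-symbol clusters was 0.00, with a median size of change of 0.06 in each.

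**Figure D2:**
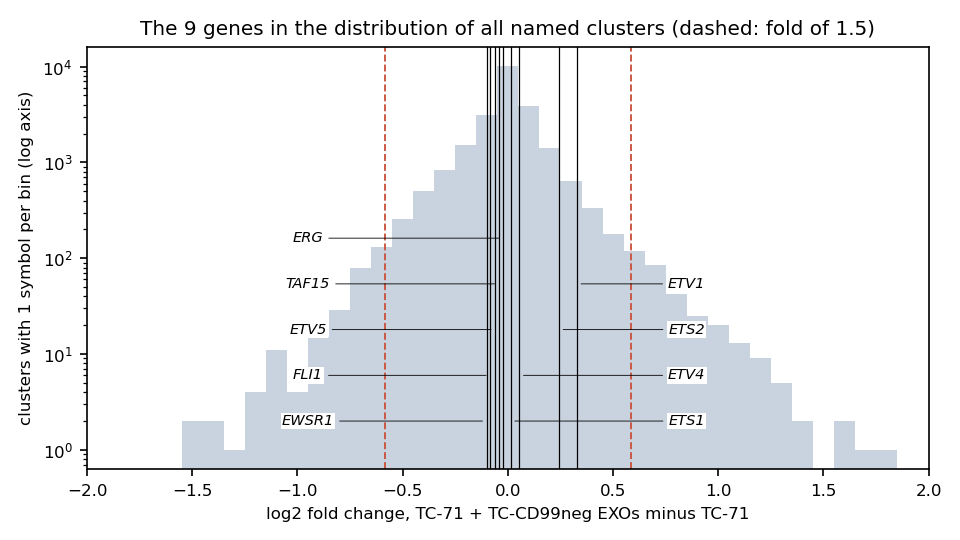
Histogram of the log2 change, EXO group minus TC-71, over the single-symbol clusters in the plotted range, with the number of clusters on a log axis, a line for each of the 9 genes and dashed lines at a fold of 1.5. The 9 genes lie between −0.10 (EWSR1) and 0.33 (ETV1), all inside the dashed lines.

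The brightness of a cluster bore on how often it passed. Among the dimmest decile of single-symbol clusters 0% passed the adjusted p, and among the brightest decile 29.8% did. ERG lay in decile 2, where 1.11% passed and the median size of change was 0.03, and ETS1 in decile 3, where 4.45% passed. ETV1 lay in decile 5, where 9.28% passed, and ETS2, EWSR1 and TAF15 in decile 10. Brightness also depends on the probes, so a cluster's decile describes its signal and not the amount of its RNA. Dim clusters moved over a narrow range on these arrays, which limits what the small changes of ERG and ETS1 show.

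**Figure D3:**
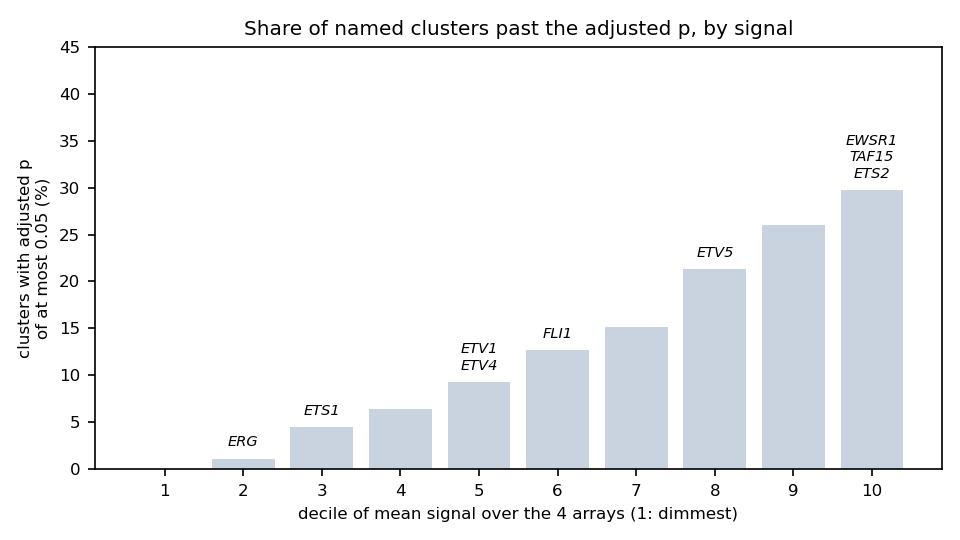
Percent of single-symbol clusters with an adjusted p of at most 0.05 in each decile of mean log2 signal, from dimmest to brightest, with the decile of each of the 9 genes written above the bars. The share goes from 0% in decile 1 to 29.8% in decile 10, where EWSR1, TAF15 and ETS2 lie.

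Of the other ETS genes, 20 of 21 listed were measured and 0 were called at the fold of 1.5, against 2.06% of single-symbol clusters. By the adjusted p 2 were higher and 1 lower, against 5.76% and 6.85% of single-symbol clusters, and 7 of 20 had an unadjusted p under 0.05, against 28.6%. GABPA, the DNA-binding subunit of GABP, a regulator of mitochondrial genes, had a log2 signal of 7.46 and 7.59 untreated and of 7.03 and 7.15 exposed. Both exposed arrays were below both untreated ones, with a change of −0.44 (SE 0.07, limma adjusted p = 0.0296), and its interval was the only one of the 20 to reach past a fold of 1.5. ERF, an ETS repressor that ERK removes from the nucleus, was higher by 0.29 (SE 0.05, limma adjusted p = 0.0431). ETV6, a repressor fused in leukaemia, was higher by 0.26 (SE 0.05, limma adjusted p = 0.0429). ELF4 had a change of 0.30 (SE 0.06) with an adjusted p of 0.0518. The median change of these 20 was 0.04. With each array left out in turn none of GABPA, ERF and ETV6 passed, the adjusted p being 0.0534 to 0.103 for GABPA, 0.0599 to 0.183 for ERF and 0.0933 to 0.199 for ETV6.

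**Figure D4:**
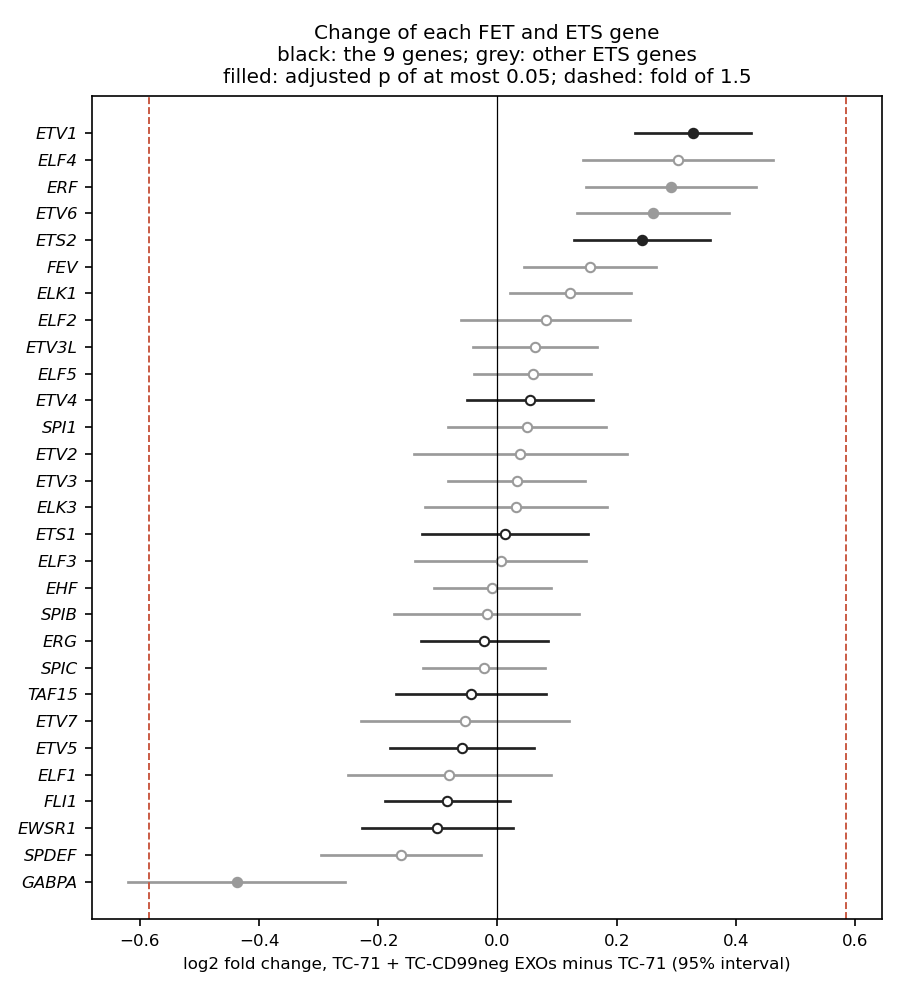
Log2 change with its 95% interval for TAF15, EWSR1 and the 27 measured ETS genes, black for the 9 genes of the set, grey for other ETS genes and filled where the adjusted p was at most 0.05; dashed lines mark a fold of 1.5. ETV1, ERF, ETV6 and ETS2 are filled on the higher side and GABPA on the lower, at −0.44.

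Transcripts of proteins that work with FET and ETS factors were read next. Of 8 listed partners of FET proteins 7 were measured, and none passed the adjusted p, against 12.6% of single-symbol clusters. By limma 3 had an unadjusted p under 0.05, against 28.6% of single-symbol clusters. TNPO1, which imports FET proteins into the nucleus, had a change of −0.33 (limma adjusted p = 0.0582), and PRMT1, which methylates them, one of 0.20 (limma adjusted p = 0.0524). DHX9, a helicase bound by the fusion, had a change of −0.19 (limma adjusted p = 0.183) and SNRPC, of the U1 splicing particle, one of 0.09 (limma adjusted p = 0.337). The median over the list was 0.06.

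Of 13 listed regulators and cofactors of ETS proteins 10 were measured, and 4 passed the adjusted p, all higher, against 5.76% of single-symbol clusters, with a median change of 0.06 over the list. The 4 lay in deciles 8 to 10 of signal, where 21.3% to 29.8% of clusters passed in either direction. Of the 10 measured 1 was called, against 2.06% of single-symbol clusters. CREBBP, the CBP acetyltransferase that ETS factors recruit, was called, from 8.95 and 9.15 to 9.85 and 9.78 (change 0.77, SE 0.08, limma adjusted p = 0.0121). With each array left out it kept an adjusted p of 0.0318 to 0.0444. The next 3 were named after their values were seen. CIC, the repressor of ETV1, ETV4 and ETV5, had a log2 signal of 7.94 and 7.94 untreated and of 8.36 and 8.28 exposed. Its exposed arrays were the higher ones (change 0.38, SE 0.04, limma adjusted p = 0.0159), as were those of its partner ATXN1L (0.26, limma adjusted p = 0.026) and of SRF, with which ternary complex ETS factors bind (0.25, limma adjusted p = 0.0346). Without 1 array the adjusted p of CIC was 0.0447 to 0.0734, that of ATXN1L 0.0709 to 0.134 and that of SRF 0.0901 to 0.177. CIC and ETV1 were both higher in exposed cells, while the ETV4 and ETV5 changes did not pass. The difference of ETV1 from ETV4 or ETV5 could not pass the permutation test, and a role of CIC was not tested.

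The remaining 8 genes of the MAPK activity score, which are targets and feedback inhibitors of ERK, were all measured and had a median change of 0.02. EPHA4, an ephrin receptor, was called, with a log2 signal of 6.17 and 6.20 untreated and of 6.91 and 6.98 exposed. Both exposed arrays were higher (change 0.76, SE 0.04, limma adjusted p = 0.00542), and with each array left out the adjusted p was 0.0191 to 0.0374. None of the other 7 passed. Of single-symbol clusters 2.06% were called and 12.6% passed the adjusted p. By limma 3 of the 8 had an unadjusted p under 0.05, against 28.6% of single-symbol clusters. DUSP6, a phosphatase of ERK, had a change of −0.20 (limma adjusted p = 0.216), and SPRY4, a feedback inhibitor of the pathway, one of 0.10 (limma adjusted p = 0.471). CCND1, a cyclin of the cell cycle, had one of −0.17 (limma adjusted p = 0.11).

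The 8 Ewing sarcoma markers listed lay above the median of all clusters on every array, with means of 8.50 to 8.59. Signals of different probes cannot be set against each other as amounts of RNA, so this describes the clusters and does not test the label of the cells. Several of them are known targets of the fusion protein. By the adjusted p 4 were higher and 2 lower, against 5.76% and 6.85% of single-symbol clusters. At the fold of 1.5, 2 of the 8 were called, against 2.06% of single-symbol clusters. NR0B1, a nuclear receptor, was called lower, from 6.86 and 7.02 to 6.28 and 6.36 (change −0.62, SE 0.07, limma adjusted p = 0.0137). PAX7, a developmental transcription factor, was called higher, from 8.42 and 8.42 to 9.13 and 8.97 (change 0.63, SE 0.06, limma adjusted p = 0.0118). The other markers that passed were CD99 (0.29), NKX2-2 (0.23) and BCL11B (0.42), all higher, and STEAP1, which was lower (−0.56). These changes were below the fold of 1.5. CD99 had 2 clusters, and the brighter was read. By qPCR and flow cytometry the paper saw no significant difference of CD99 between TC-71 cells with and without CD99neg EXOs. Markers of cells in which FLI1, ERG and ETS1 are otherwise active were listed too. The 5 endothelial markers had means of 5.10 to 5.14 over the arrays, with 2 above the median, and the 4 blood markers measured had means of 5.27 to 5.32, with 1 above it. None of these 9 passed the adjusted p, against 12.6% of single-symbol clusters, and their changes were between −0.06 and 0.05. Their signals lay at percentiles 6.4 (PTPRC) to 43.6 (SPI1) of single-symbol clusters, and dim clusters passed less often. The array medians were 5.38 to 5.45.

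The genes whose pattern lay nearest to those of the fusion partners were sought among single-symbol clusters, by the Euclidean distance over the 4 arrays after each was centred. For EWSR1 they were BBS10, at a distance of 0.005, VDAC2, at 0.008, and WDR92, at 0.011. For FLI1 all 3 were clusters of WDR46, at 0.002, 0.005 and 0.005, and a pair of them held the same values. Such nearness is common over 4 arrays: 2496 clusters (10.7%) lay within 0.1 of EWSR1 and 6271 (26.8%) within 0.1 of FLI1.

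Across the settings tried ETV1 and ETS2 kept their direction in 14 of 14 each, but most settings could not turn it. Variance models and filters leave the change as it is, and groups that do not overlap keep its sign without 1 array. Under the other scalings ETV1 was 0.29 to 0.30 and ETS2 0.20 to 0.27. With all 4 arrays the adjusted p of ETV1 passed in 9 of 10 settings and that of ETS2 in 6 of 10. These settings include the mean over all clusters of a gene. It repeats the reported fit, because each of the 9 genes has 1 cluster, and so counts as a pass for both. With an array left out neither passed in any of 4.

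**Figure D5:**
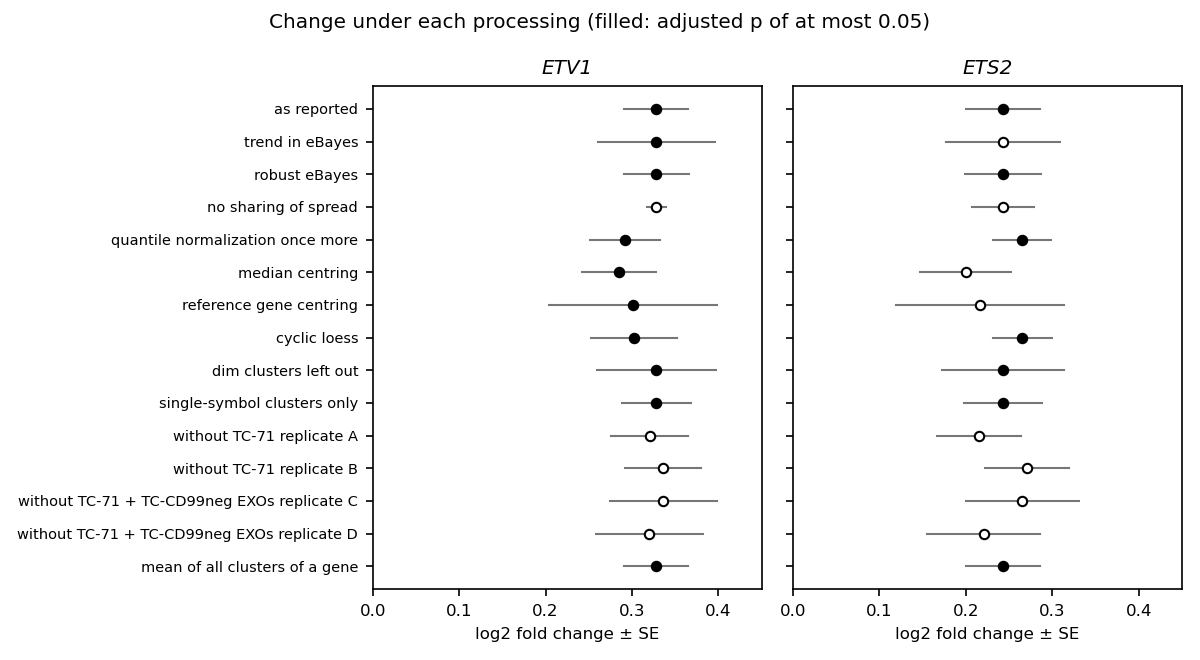
Log2 change of ETV1 (left) and ETS2 (right), EXO group minus TC-71, under each setting of the processing, with bars for the SE and points filled where the adjusted p was at most 0.05. ETV1 lies between 0.29 and 0.34 and ETS2 between 0.20 and 0.27 under every alternative plotted, with open points whenever an array was left out.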

How the data were processed

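TC-71 cells were measured on 4 Human Transcriptome Arrays, 2 untreated and 2 exposed to CD99neg EXOs. The authors summarized the array files in GeneSpring 14.9 with ExonRMA16 and quantile normalization without baseline transformation, and the deposited values are log2 signals, used here unchanged. Genome build of the array annotation: not given in the sources used here. Row names have the form of exon-region (35970) and junction (31569) entries, although each row was read as a transcript cluster. Platform annotation gave 1 symbol to 23383 rows, several to 1225 and none to 42931. COP1 was measured under its older symbol RFWD2. Some listed genes are not reported here.

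Changes (EXO group minus TC-71) were tested with limma 3.58.1 (lmFit, eBayes) in R 4.3.3, with Benjamini-Hochberg adjustment over all 67539 rows, 2 residual and 2.59 prior degrees of freedom. Genes were called at an adjusted p of 0.05 or less together with a 1.5-fold change or more. The labels call the replicates biological without saying whether they were separate cultures, so p-values measure the spread between these samples. Arrays have no read depth, and their number limits precision. The fit was tested on simulated data. The members and lists were chosen with earlier results of these data known. Named genes were the 9 members, the called genes of each list or otherwise its 4 largest changes, and the 3 clusters nearest to EWSR1 and FLI1. In the lists with CREBBP, EPHA4 and PAX7, further genes were named after their values were seen, and the endothelial and blood markers are given as counts. Promoter windows came from RefSeq (GRCh38.p14), which matched 4 of the 9 genes. Alternatives were other variance models, scalings and filters, the mean over all clusters of a gene, a fold of 1.2, and each array left out.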

Additional observations from a re-analysis of the deposited data

How the results depend on the processing

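With a fold of 1.2 in place of 1.5, 1 of the 9 genes was called (ETV1). The share of single-symbol clusters called at that fold was not computed, and 12.6% of them passed the adjusted p at any fold. Of the 9, the count with an adjusted p of at most 0.05 was 2 as reported, 1 with an intensity trend in the variance model, 0 without sharing of spread between clusters, 1 with each array centred on its median and 1 with centring on reference genes. It was 0 to 0 with each array left out in turn (A, B, C or D). Without sharing of spread 0 of the MAPK activity genes were called in place of 1. Over all clusters that model passed 0 by adjusted p, in place of 6550, and leaving out an array passed 2307 to 3064. The change of ETS1 was −0.0144 with quantile normalization once more, −0.0302 with median centring, −0.0139 with reference gene centring, −0.0047 with cyclic loess and −0.0440 to 0.0698 with an array left out (negative without B). That of ERG was −0.0485 to 0.0043 with an array left out (positive without A). The cause of these turns was not tested. Centring on the median moved the median change of all clusters from 0.01 to −0.03, the largest such move among the scalings. Of the 13 reference genes measured, 2 were themselves higher (TFRC and GUSB) and 1 lower (TBP) by the adjusted p. Settings for the genes named outside the 9 were chosen after seeing the data. ERG and ETS1 have no value with dim clusters left out. No paired analysis was possible because A and B name only untreated arrays and C and D only exposed ones. With 2 arrays a group, changes smaller than the intervals given were not detectable.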
